A study of Mustela putorius furo with 8 samples.

Results

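The trefoil factor genes TFF1, TFF2 and TFF3 were followed in single-cell RNA libraries of cultured ferret pancreatic ductal epithelium (PDE). They are 3 of the 27912 genes in the count matrices, selected by their symbols because earlier results on these data had shown that their levels differ between days and genotypes. Every value below is therefore a description of 8 libraries and no test was run. The PDE cultures came from newborn wild-type (WT) ferrets and from newborn ferrets with both copies of CFTR knocked out (CF, CFTR KO/KO). Duct cells were expanded over many passages on 804G-coated dishes in PneumaCult medium and then grown at an air-liquid interface (ALI) on porous inserts, and libraries were made on ALI day 2, 5, 7 and 9 with the 10x Genomics droplet method. Each genotype and day had 1 library of cells pooled from several animals, so the spread between replicates is not known for any value. The general culture protocol in the sample labels gives a longer ALI time, and days were taken from the sample titles. All 8 groups share the newborn source, the passaging and the media, and passaged cultures hold only the cells that survive these conditions.

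Trefoil factors are small secreted peptides with tightly disulfide-bonded loops, made by mucus-producing cells and stored and released with the gel-forming mucins. TFF1 is best known from the surface cells of the stomach, where it travels with the mucin MUC5AC. TFF2 is best known from gastric gland mucous cells and the Brunner's glands of the duodenum, where it is found with MUC6. TFF3 is the trefoil factor of intestinal goblet cells, binds the mucus protein FCGBP, and is also made in airway and duct glands. The peptides help damaged epithelium to close, and in the pancreas they are known from mucus-producing cells of the ducts and their glands.

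The authors had retained 32945 of 44243 barcodes. The WT libraries held 4634 to 6224 cells and 82961927 to 114585136 unique molecular identifiers (UMIs, each a counted transcript molecule), and the CF libraries held 1607 to 4499 cells and 34735952 to 102328589 UMIs. The median cell had 14949 to 16862 UMIs in WT and 17833 to 23427 in CF, with a median mitochondrial share of 6.63 to 10.7% in WT and 5.65 to 7.04% in CF. Of the retained cells, 39 to 411 per library had fewer than 3000 UMIs, and the 411 were those of CF day 7. Any pair of libraries shared 1 to 14 cell barcodes, and none of the 150 shared barcodes had the same UMI total in both libraries. CFTR transcripts were counted in every library, at 6.57 to 29.5 CPM (a gene's UMIs per 1000000 UMIs of the library) in WT and 2.50 to 11.4 CPM in CF, and a 3′ tag does not show whether a transcript is disrupted. The study describes CFTR KO/KO ferrets as lacking both CFTR mRNA and protein, and the source of the CFTR tags in CF was not tested. The ductal keratin KRT19 stood at 3772 to 5113 CPM. Of 9 acinar genes 6 had no row, and the acinar enzyme CPB1 and the acinar factor PTF1A had no UMI, so the acinar names of some clusters could be checked against few genes. No UMI of INS or GCG was counted. The 6 fibroblast genes summed to 2.29 to 5.79 CPM in WT and 1.52 to 28.0 CPM in CF, with COL1A1 at 18.9 CPM in CF day 7 and 13.2 CPM in CF day 9.

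In the RefSeq annotation of ferret assembly ASM1176430v1.1, the build on which the authors had counted, the 3 genes are neighbours on one sequence whose chromosome is not named. TFF1 spans positions 3327302 to 3333118, TFF2 spans 3344687 to 3347349 and TFF3 spans 3361502 to 3364451, all annotated as protein coding. The gaps between them are 11568 and 14152 bases. The 3 nearest annotated genes before TFF1 are RSPH1, UBASH3A and TMPRSS3, and the 3 after TFF3 are ABCG1, UMODL1 and LOC123393196. Of these 6 neighbours, ABCG1, a sterol exporter, was the one above 1 CPM, at 4.42 to 10.3 CPM in the WT libraries and 8.46 to 16.9 CPM in the CF libraries. TMPRSS3, an epithelial serine protease, reached 0.580 CPM, and UBASH3A and LOC123393196 had no UMI in any library. The trefoil levels thus stood at 137 to 372 CPM at their highest beside neighbours of at most 16.9 CPM.

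All 3 genes were close to absent at day 2 and were among the more abundant transcripts by day 9. Levels are summed UMIs of the retained cells scaled to the library total, and intervals are exact 95% Poisson intervals that cover counting error only. TFF1 had 2 UMIs in the WT day 2 library, which is 0.0175 CPM (0.00211 to 0.0630). It then stood at 1.33, 8.44 and 137 CPM in WT at days 5, 7 and 9. In CF, TFF1 stood at 0.166, 6.76, 52.3 and 110 CPM at days 2, 5, 7 and 9. Each later library of a genotype was above the earlier ones, and the counting intervals of neighbours in the order of the 8 libraries did not overlap.

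TFF2 followed the same order over the 8 libraries. Its levels in WT were 0.262, 16.4, 74.7 and 324 CPM at days 2, 5, 7 and 9. Its levels in CF were 1.77, 27.9, 130 and 203 CPM. TFF3 differed in that WT passed CF as early as day 5. Its levels in WT were 0.497, 37.8, 123 and 372 CPM, and in CF they were 1.84, 23.8, 66.3 and 78.8 CPM. By number of UMIs, TFF3 was gene 348 in the WT day 9 library and TFF2 gene 408, counted from the most abundant. In CF day 9, TFF2 stood at place 748 and TFF3 at place 1999.

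**Figure D1:**
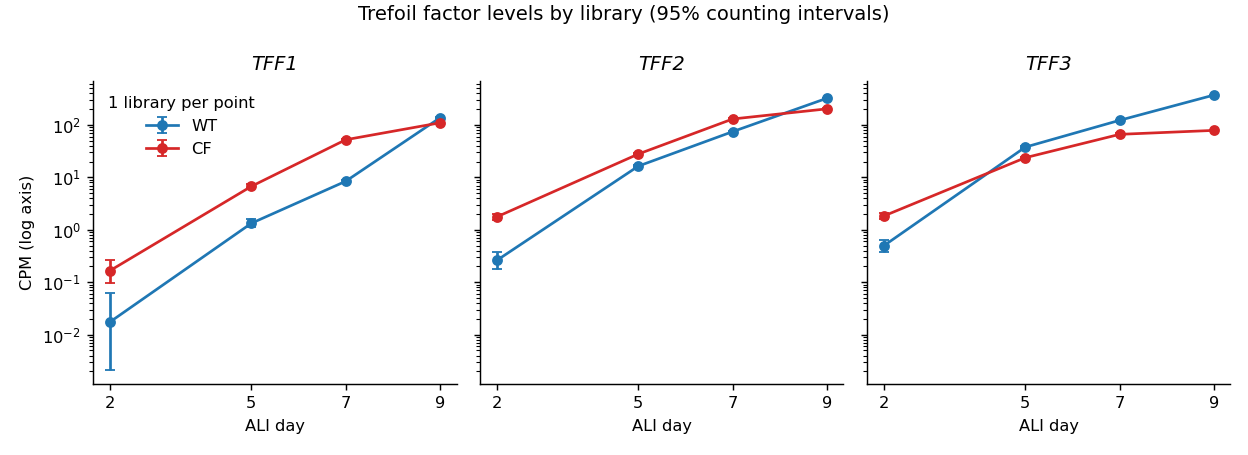
Level of each trefoil gene in CPM (log axis) against ALI day, with 1 library per point, WT in blue, CF in red and bars for 95% Poisson counting intervals. The CF points lie above WT until day 7 for TFF1 and TFF2, and the TFF3 points of CF lie below WT from day 5, with 78.8 against 372 CPM at day 9.

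The steps between days were unequal. In WT, TFF1 was 16.2-fold higher at day 9 than at day 7 (15.1 to 17.6, exact conditional binomial 95% interval for counting error), beside 4.34-fold for TFF2 (4.22 to 4.46) and 3.03-fold for TFF3 (2.97 to 3.10). The WT step from day 7 to day 9 was thus steepest for TFF1. In CF the same step was 2.10-fold for TFF1 (2.00 to 2.22), 1.56-fold for TFF2 (1.51 to 1.62) and 1.19-fold for TFF3 (1.13 to 1.25). From day 5 to day 7 TFF1 was 7.74-fold higher in CF (6.99 to 8.57) and 6.32-fold higher in WT (5.25 to 7.66), and these intervals overlapped. From day 2 to day 9 on the log2(CPM + 1) scale, which understates differences of genes near 1 CPM, the WT differences were 7.08, 8.01 and 7.96 for TFF1, TFF2 and TFF3, and the CF differences were 6.57, 6.20 and 4.82. All 3 members were at least 2-fold higher at day 9 in both genotypes, where 9.56% of 8183 genes of at least 10 CPM were in WT and 6.6% of 8013 were in CF.

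The composition of the trefoil transcripts moved away from TFF3 and towards TFF1. TFF3 made up 68.1% of the trefoil UMIs in WT day 5 (66.8 to 69.3, exact Clopper-Pearson), 59.6% at day 7 and 44.7% at day 9. In CF it made up 40.7% at day 5, 26.7% at day 7 and 20.1% at day 9 (19.5 to 20.7). TFF1 went from 2.40% to 4.10% and 16.4% in WT, and from 11.6% to 21.02% and 28.1% in CF. TFF2 went from 29.5% to 36.3% and 38.9% in WT. In CF the TFF2 share was 47.8, 52.3 and 51.8%, and the intervals of days 7 and 9 overlapped. These are shares of tags and not of peptides. In each genotype the TFF3 share was lower on each later day from day 5 on.

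The comparison of CF with WT at one day changed sign with time. TFF1 was 6.20-fold higher in CF at day 7 (5.68 to 6.77) and 5.06-fold higher at day 5 (4.18 to 6.18). At day 9 it was 1.25-fold higher in WT (1.21 to 1.29). TFF2 was 1.70-fold higher in CF at day 5, 1.74-fold higher at day 7 and 1.59-fold higher in WT at day 9 (1.56 to 1.63). TFF3 was 1.59-fold higher in WT at day 5, 1.85-fold at day 7 and 4.72-fold at day 9 (4.57 to 4.88). At day 2 all 3 genes were higher in CF, with CF to WT ratios of 9.52 for TFF1 (2.26 to 84.9, on 17 and 2 UMIs), 6.76 for TFF2 (4.57 to 10.3) and 3.69 for TFF3 (2.73 to 5.06), at levels under 2 CPM.

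Most of these differences were under 2-fold from day 5 on. No member reached 10 CPM at day 2. At day 5, TFF2 and TFF3 passed that filter and neither was 2-fold apart, where 2.25% of 8093 genes were at least 2-fold higher in CF and 4.08% at least 2-fold lower. At day 7 all 3 passed and TFF1 was at least 2-fold higher in CF, as were 4.93% of 8151 genes, while 2.83% were lower. At day 9 TFF3 was at least 2-fold lower in CF, as were 3.78% of 8092 genes, and no member was among the 3.56% that were higher. On the log2(CPM + 1) scale TFF1 differed by 2.50 at day 7 and TFF3 by -2.22 at day 9 (CF minus WT), where the median of all tested genes was 0.14 and 0.09. With each deposited class given the same weight, the day 9 differences of TFF1 and TFF2 were 0.29 and 0.27 in place of -0.31 and -0.67, so their direction at day 9 depended on the weighting of the classes. The classes include clusters whose leading genes did not pass a check of their names, so this value compares deposited names and not checked cell types. With all deposited barcodes in place of the retained ones, the day 5 differences of TFF1 and TFF2 were 0.84 and 0.09 in place of 1.73 and 0.73. In summed libraries, fewer cells that make a transcript and less of it per cell cannot be told apart.

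The WT clusters fell apart by SOX2, a transcription factor of foregut and airway epithelium used here to set the trefoil levels side by side. SOX2 stood at 68.5 to 114.5 CPM in the WT libraries and at 0.0864 CPM or less in the CF libraries. Of the 41 WT clusters of the authors, 12 were under 10 CPM of SOX2 (at most 4.87) and 29 were above it (at least 50.6), and none of the 30 CF clusters exceeded 1.08 CPM. The SOX2-low clusters held 14.3, 33.8, 27.5 and 27.9% of WT cells at days 2, 5, 7 and 9. At day 9 these cells carried 88.0% of TFF1 UMIs and 91.5% of TFF2 UMIs of the WT library but 34.2% of TFF3 UMIs. TFF1 stood at 396 CPM in SOX2-low and 23.7 CPM in SOX2-high cells at that day, TFF2 at 974 and 39.5 CPM, and TFF3 at 418 and 352 CPM. Clusters 17 and 30, which were 552 of the 1510 SOX2-low cells, carried these levels with 1044, 2556 and 1085 CPM of TFF1, TFF2 and TFF3. The other 958 SOX2-low cells stood at 9.03, 29.6 and 19.7 CPM, so the high levels belonged to these clusters and not to SOX2-low cells in general.

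At day 7 the SOX2 groups differed more in TFF3 than at day 9. SOX2-low cells carried 87.3% of TFF1 and 92.7% of TFF2 UMIs there, and SOX2-high cells carried 86.0% of TFF3 UMIs. TFF3 stood at 161 CPM in SOX2-high and 50.04 CPM in SOX2-low cells at day 7. At day 5 the TFF3 levels were 31.8 and 45.0 CPM, so the order of the SOX2 groups for TFF3 was not the same on each day.

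Against the SOX2-low WT cells, CF looked different from the comparison with all WT cells. TFF2 was then lower in CF at each day, by 1.08-fold at day 2 (0.697 to 1.61), 1.24-fold at day 5 (1.16 to 1.33), 1.54-fold at day 7 (1.48 to 1.60) and 4.79-fold at day 9 (4.69 to 4.91). The day 2 interval spans no difference. TFF1 remained 2.47-fold and 2.45-fold higher in CF at days 5 and 7 and was 3.60-fold lower at day 9 (3.48 to 3.72). TFF3 was 1.35-fold higher in CF at day 2, with an interval that spans no difference (0.849 to 2.26), and 1.90-fold lower at day 5 (1.78 to 2.02). It was 1.32-fold higher at day 7 (1.24 to 1.42) and 5.30-fold lower at day 9 (5.11 to 5.50), so its direction was not the same on each day. At day 9 the CF clusters 7, 18, 19 and 25 stood at 238, 436 and 164 CPM of TFF1, TFF2 and TFF3, beside 1044, 2556 and 1085 CPM in WT clusters 17 and 30. The remaining 1643 CF cells stood at 4.42, 11.4 and 8.25 CPM, beside 9.03, 29.6 and 19.7 CPM in the remaining SOX2-low WT cells. These clusters were picked for their trefoil levels, and the values are descriptions.

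Clusters were described singly, by the authors' numbers. Of the 71 clusters, 12 led with genes that did not go with their deposited class name or had few UMIs. Passing does not bear out a name, since a cluster with enough UMIs and no listed marker among its 10 leading genes passed. WT cluster 17 and CF cluster 7 passed in this way. The clusters rest on the expression profiles of the same cells, so that a high level in one is a description and no separate finding. In the 39 WT clusters of at least 50 cells, TFF1 ranged from 0 to 973 CPM with a median of 1.19, TFF2 from 0 to 2712 with a median of 4.50, and TFF3 from 0 to 1342 with a median of 18.2. Of these clusters, 4 reached 10 CPM of TFF1, 9 of TFF2 and 23 of TFF3. In the 29 CF clusters, with days pooled as in WT, the medians were 1.32, 4.56 and 5.39 CPM. The highest levels were 245, 436 and 286 CPM, and 8, 10 and 11 clusters reached 10 CPM. In WT, TFF3 was thus spread over more clusters than TFF1 and TFF2.

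WT cluster 17 held most TFF1 and TFF2 transcripts of the WT cells. It had 603 cells, was deposited as ductal and stood at 1.92 CPM of SOX2. TFF1 stood at 973 CPM in it, TFF2 at 2712 CPM and TFF3 at 1017 CPM. These were 77.5, 76.1 and 22.1% of the WT UMIs of the respective genes. Its leading genes beside TFF2 and TFF1 were BPIFB1, a secreted protein of mucosal surfaces, LTF, the iron-binding antimicrobial lactoferrin, and SLC6A14, an amino acid transporter. Its median mitochondrial share was 14.2%, above the medians of all libraries, and its median of 16340 UMIs per cell lay within theirs. WT cluster 30 (260 cells, SOX2 at 3.31 CPM) had the same combination at lower levels, with 175, 750 and 213 CPM, and a median mitochondrial share of 13.7%.

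Another group of WT clusters carried TFF3 without TFF1 and TFF2. WT clusters 18 (579 cells) and 32 (169 cells), both deposited as centroacinar progenitor, stood at 1330 and 1342 CPM of TFF3. In cluster 32, 1 cell held 1257 of the 4137 TFF3 UMIs. TFF1 was at 1.45 and 0.649 CPM there and TFF2 at 3.58 and 4.86 CPM. SOX2 was at 101 and 116 CPM, and the median mitochondrial share was 12.8% in cluster 18. The study had used TFF3 among the genes that characterise centroacinar progenitors, so the class name and the TFF3 level are not independent. WT clusters 3 and 16, deposited as centroacinar and also SOX2-high, stood at 342 and 259 CPM of TFF3 with at most 3.81 CPM of TFF1 and 8.85 CPM of TFF2. Clusters 17 and 18 differed in their other secretory genes too. CLCA1, a secreted goblet cell protein, was at 148 CPM in cluster 18 and 12.4 CPM in cluster 17, MUC5B was at 384 and 60.6 CPM, and LTF was at 4.81 and 653 CPM.

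TFF1 and TFF2 were low in the SOX2-high cells outside clusters 29 and 40. In WT day 9, the lowest clusters of at least 50 cells had 1.85 CPM of TFF1 (131 cells of cluster 1, a UMI in 3.05% of cells at a median of 16210 UMIs) and 5.52 CPM of TFF2 (115 cells of cluster 18, a UMI in 7.83% of cells at a median of 14080 UMIs). Leaving out clusters 29 and 40, the SOX2-high cells at day 9 had 4.69 CPM of TFF1 and 9.82 CPM of TFF2. Cluster 21, with 8.56 CPM of TFF1 (6.39 to 11.2), was above the lowest cluster and its upper limit of 4.75 CPM. Droplet libraries hold free RNA, and its part in these low levels was not tested. TFF3 stood at 337 CPM in the same cells against 5.21 CPM in its lowest cluster of that library.

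WT clusters 29 and 40 combined SOX2 with all 3 trefoil genes. Cluster 29 (282 cells) had SOX2 at 82.3 CPM beside 141, 314 and 366 CPM of TFF1, TFF2 and TFF3, and a median mitochondrial share of 14.3%. Of its 46 cells with at least 10 UMIs of TFF1 and TFF2 together, 35 had a SOX2 UMI, which is 76.1% (61.2 to 87.4), and in cluster 17 it was 7 of 310 such cells or 2.26% (0.913 to 4.597). The median UMI count of those 46 cells was 18570, beside 19200 in cells of cluster 29 with no UMI of either gene. Cluster 40 had 29 cells with a median of 49260 UMIs, and 305, 241 and 562 CPM of the 3 genes. The authors had removed doublets, and whether droplets with 2 cells remained in these clusters was not tested.

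**Figure D2:**
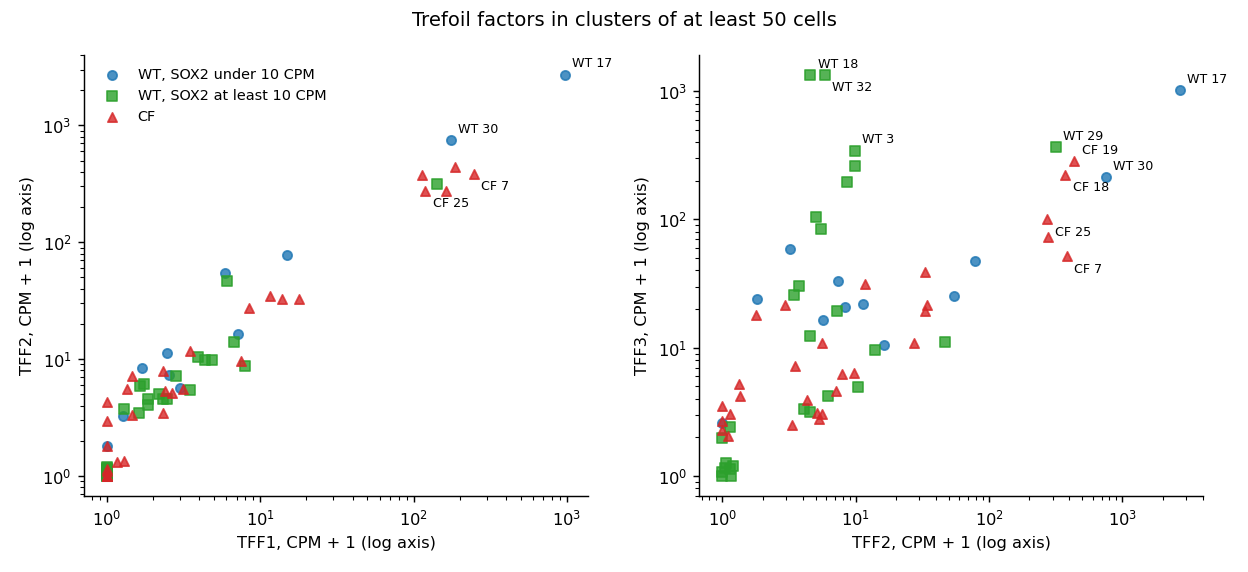
Trefoil levels (CPM + 1, log axes) in the 39 WT and 29 CF clusters of at least 50 cells, TFF2 against TFF1 on the left and TFF3 against TFF2 on the right, with a point per cluster. Clusters lie along one band for TFF1 and TFF2, while WT clusters 18 and 32 stand at 1330 and 1342 CPM of TFF3 with under 5 CPM of TFF2.

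With days pooled, no CF cluster matched the TFF3 levels of WT clusters 18 and 32, and the high clusters carried all 3 genes. CF cluster 19 (331 cells, deposited as ductal) stood at 184, 436 and 286 CPM of TFF1, TFF2 and TFF3. CF cluster 18 (338 cells, deposited as centroacinar progenitor) stood at 113, 373 and 222 CPM. CF cluster 25 (197 cells, the same class) stood at 118, 272 and 99 CPM. CF cluster 7 (493 cells, deposited as centroacinar) differed from these, with 245 CPM of TFF1 and 381 CPM of TFF2 but 50.6 CPM of TFF3. Cluster 7 held 46.4% of the TFF1 UMIs of all CF cells, and clusters 18 and 19 held 26.6 and 31.3% of the TFF3 UMIs. The median mitochondrial share was 8.41, 8.67, 13.5 and 10.4% in clusters 7, 18, 19 and 25, above the 5.65 to 7.04% of the CF libraries, and its part in the trefoil levels was not tested. Of the 6 fibroblast genes, 4 had no UMI in clusters 7 and 19, and COL1A1, which was high in the late CF libraries, was at 0.203 and 0.336 CPM. PDGFRA was at 2.77 and 5.83 CPM there, above the 0.547 to 2.13 CPM of the CF libraries. CF cluster 21 (226 cells) showed 163, 276 and 72.5 CPM at a median of 1044 UMIs per cell, and its shallow cells held under 1% of the CF UMIs of each gene.

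Some CF clusters had TFF3 with little of the others at a far lower level. CF cluster 0 stood at 16.9 CPM of TFF3, 0.801 CPM of TFF2 and no UMI of TFF1, and CF cluster 26 at 20.6, 1.95 and 0 CPM. CF cluster 29, with 47 cells, stood at 33.0 CPM of TFF3 on 16 UMIs, with 1 UMI of TFF1 and 2 of TFF2.

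The levels within clusters also differed between days. In WT cluster 17, TFF1 stood at 125, 186 and 1398 CPM at days 5, 7 and 9 (30, 161 and 406 cells). TFF2 stood at 920, 1621 and 3364 CPM, and TFF3 at 276, 194 and 1449 CPM. The cluster made up 0.563, 3.47 and 7.496% of WT cells on these days, so both its share and its trefoil level were highest at day 9. In WT cluster 18, TFF3 stood at 461, 1048 and 3303 CPM (117, 347 and 115 cells). Its share of WT cells was 2.20, 7.49 and 2.12%, so at day 9 its TFF3 level was highest while its share was as small as at day 5. WT cluster 32 had 280, 429 and 3612 CPM of TFF3 on 43, 55 and 57 cells. At day 9, 1 of these cells held 1257 of the cluster's 3455 TFF3 UMIs. Unthinned, a TFF3 UMI was found in 16.3, 23.6 and 57.9% of cluster 32 cells, beside 47.0, 66.9 and 84.35% in cluster 18.

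Levels within the CF clusters differed between days too. In CF cluster 18, TFF2 was at 88.7, 493 and 472 CPM at days 5, 7 and 9, and TFF3 at 80.3, 242 and 317 CPM. In CF cluster 19, TFF2 was at 285 and 565 CPM at days 7 and 9 and TFF3 at 153 and 392 CPM. CF cluster 25 stood at 45.2, 168 and 41.6 CPM of TFF1, TFF2 and TFF3 at day 5 (169 cells). At day 7 it stood at 568, 907 and 450 CPM on 26 cells. CF cluster 7 was almost wholly a day 9 cluster, with 473 of its 493 cells, and at that day it was 19% of CF cells and held 64.4% of TFF1 and 53.1% of TFF2 UMIs but 16.8% of TFF3 UMIs. Clusters 7, 18, 19 and 25 together were 34.0% of CF day 9 cells and held 97.8, 96.9 and 94.3% of the UMIs of the 3 genes. The 4 clusters were chosen after their values had been seen.

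**Figure D3:**
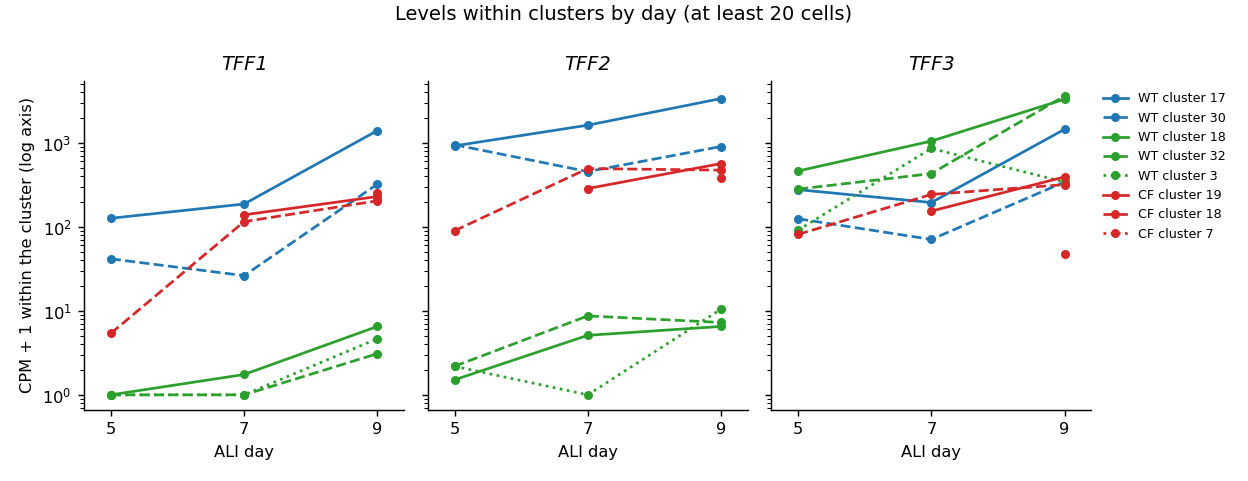
Level of each trefoil gene (CPM + 1, log axis) within 8 clusters at days 5, 7 and 9, shown where a cluster had at least 20 cells in the library, with SOX2-low WT clusters in blue, SOX2-high WT clusters in green and CF clusters in red. For TFF1 and TFF2 the green lines stay under 11 CPM + 1. For TFF3 clusters 18 and 32 are highest at day 9 with 3303 and 3612 CPM. In cluster 32 at day 9, 1 cell held 1257 of 3455 TFF3 UMIs.

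By deposited class, the class with the largest part of a gene's UMIs differed between libraries. In WT day 9, cells deposited as ductal (39.7% of cells) held 79.7% of TFF1, 81.6% of TFF2 and 31.0% of TFF3 UMIs. Nearly all of these were in the 406 cells of cluster 17, which held 77.9, 79.35 and 29.7% of the library's UMIs. It had no listed ductal marker among its 10 leading genes. Cells deposited as centroacinar (43.6% of cells) held 32.7% of TFF3 UMIs. Centroacinar progenitors (16.6% of cells) held 36.3% of TFF3 UMIs at 814 CPM, with 37.2 CPM of TFF1 and 31.9 CPM of TFF2. These TFF1 and TFF2 levels rest on 523 and 449 UMIs. The class includes the deep cells of cluster 40, which held 447 UMIs of TFF1 and 353 of TFF2 over all days on 29 cells, 19 of them at day 9. The class levels of these 2 genes thus rest largely on few cells. In CF day 9, cells deposited as centroacinar (78.6% of cells) held 65.8% of TFF1 and 54.8% of TFF2 UMIs, and ductal cells (11.4%) held 52.6% of TFF3 UMIs. In CF day 7 the progenitor class (20.6%) held 61.6, 65.3 and 63.7% of the UMIs of the 3 genes. Most of the TFF3 UMIs of the CF ductal class were those of cluster 19, whose 10 leading genes hold the 3 trefoil genes and no listed ductal marker. Clusters that did not pass the naming check, which left TFF3 out of its markers, were part of these classes.

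Transcripts of each gene were concentrated in few cells. At WT day 9, the top 1% of cells held 64.1% of TFF1, 53.5% of TFF2 and 41.5% of TFF3 UMIs, and the top 10% held 98.4, 97.5 and 88.8%. At CF day 9 the top 1% held 51.1, 46.4 and 40.6%. In the cell with the largest share, TFF3 made up 5.97% of all UMIs (1257 of 21072, WT cluster 32), TFF2 5.54% (1033 of 18661) and TFF1 3.24% (615 of 18998), the last 2 in WT cluster 17, all at day 9.

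For shares of cells, each cell was thinned at random to 3000 UMIs and shallower cells were left out, 136 at WT day 9 and 224 at CF day 9. At day 7, 73 of 4634 WT cells and 411 of 1607 CF cells were left out. The shares are thus of the deeper cells of each library. TFF3 was then detected in 19.6% of WT cells (18.5 to 20.7) and 8.65% of CF cells (7.53 to 9.89) at day 9. TFF2 was detected in 10.9% of WT cells (10.1 to 11.8) and 13.8% of CF cells (12.4 to 15.3), and TFF1 in 6.50% (5.85 to 7.20) and 10.1% (8.90 to 11.4). The TFF3 share was larger in WT, as was its CPM. Before thinning, the lowest CF day 9 clusters had a UMI of TFF1 in 4.14% of cells and of TFF3 in 4.89% (266 cells of cluster 11, median of 21890 UMIs), and of TFF2 in 7.63% (118 cells of cluster 16, median of 17950 UMIs). Without thinning the day 9 shares were 36.0% in WT and 20.2% in CF for TFF3, 22.2 and 27.2% for TFF2, and 13.4 and 19.5% for TFF1. The TFF1 and TFF2 shares go against the CPM, which was higher in WT, and no order of the genotypes is read from them.

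UMIs were also counted per detecting cell. In cells with a UMI after thinning, the mean at day 9 was 5.54 UMIs of TFF1 in WT and 3.03 in CF, 8.29 and 3.63 of TFF2, and 5.80 and 2.62 of TFF3. The median in the same cells was 2 UMIs in WT and 1 in CF for TFF1 and TFF3, and 2 in both for TFF2. Cells with at least 3 of the 3000 UMIs were 2.56% of WT and 3.05% of CF cells for TFF1 (2.15 to 3.02 and 2.38 to 3.84), 5.32 and 4.99% for TFF2 (4.73 to 5.96 and 4.13 to 5.97), and 8.50 and 2.69% for TFF3 (7.77 to 9.29 and 2.07 to 3.45). The intervals overlapped for TFF1 and TFF2 and did not for TFF3. They cover the counting of cells within 1 library of each genotype and not the spread between cultures, so they do not compare the genotypes.

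Co-detection was described by odds ratios. At WT day 9, 251 of the 343 cells with TFF1 also had TFF2 (73.2%), and the odds ratio of the pair was 38.5. The odds ratios with TFF3 were 6.18 for TFF1 and 3.88 for TFF2. At CF day 9, 148 of 229 cells with TFF1 had TFF2 (64.6%) at an odds ratio of 20.7, and the odds ratios with TFF3 were 10.2 for TFF1 and 12.1 for TFF2. At day 9 the odds ratio was thus highest for TFF1 with TFF2 in both genotypes, although in WT as many cells had TFF2 with TFF3 (252) as TFF1 with TFF2 (251). The odds ratios with TFF3 were higher in CF at days 7 and 9 and lower in CF at day 5. At day 5 they were 0.943 for TFF1 and 1.71 for TFF2 in CF beside 21.2 and 6.15 in WT, on 1 to 10 cells with both genes. Cells of a library share their source and depth, and the odds ratios are descriptions.

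Cells with TFF3 alone were more frequent in WT than in CF at days 7 and 9. At day 9, 3.24% of WT cells (2.78 to 3.75) and 3.27% of CF cells (2.57 to 4.08) had all 3, but 1.70 and 0.829% did at 1000 UMIs per cell and 1.46 and 0.706% had at least 3 UMIs of each gene. TFF3 alone was detected in 14.4% of WT and 3.27% of CF cells. At day 7 all 3 were found in 0.395% of WT cells (0.234 to 0.623) and 1.25% of CF cells (0.704 to 2.06), and TFF3 alone in 9.52 and 2.76%. At day 5, all 3 were found in 5 WT cells (0.0966%) and 1 CF cell (0.037%), and TFF3 alone in 5.45% of WT and 5.10% of CF cells. At day 2 no thinned cell of either genotype had more than one of the genes, and with 6144 WT and 4460 CF cells a share of all 3 up to 0.0600 and 0.0827% is within the upper limits.

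**Figure D4:**
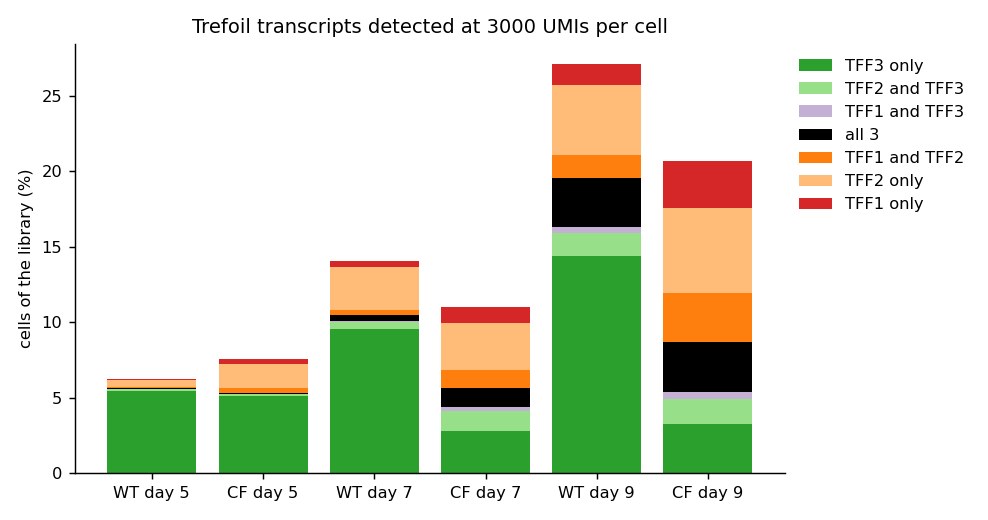
Share of the cells of at least 3000 UMIs in each library (%) with the trefoil transcripts named by colour, at days 5, 7 and 9. Cells were thinned to 3000 UMIs, and cells without any of these transcripts are left out of the stacks. The part with TFF3 alone is 14.4% in WT and is 3.27% in CF at day 9, and the parts with all 3 genes are 3.24 and 3.27%.

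The SOX2 groups of WT differed in these patterns. At day 9, 77.7% of the 251 SOX2-low cells with TFF3 also had TFF1 or TFF2, and 9.96% of the 783 SOX2-high cells with TFF3 did. In CF day 9 it was 62.2% of 196 cells. Within WT cluster 17 at day 9, 30.5% of cells (25.95 to 35.3) had all 3 genes and 4.06% had TFF3 alone. Within WT cluster 18, none of 114 cells had all 3, for which the upper limit is 3.18%, and 71.1% had TFF3 alone. TFF1 was detected in 0.877% and TFF2 in 2.63% of its cells.

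Cells with at least 10 trefoil UMIs, unthinned, showed which gene led in a cell. In WT day 9 there were 344 such cells among the SOX2-low and 445 among the SOX2-high. TFF3 made up over 90% of the trefoil UMIs in 1.16% of the SOX2-low cells (0.318 to 2.95) and in 82.9% of the SOX2-high cells (79.1 to 86.3). In CF day 9 it did so in 2.03% of 295 cells (0.750 to 4.37). TFF2 was the most frequent of the 3 transcripts in 73.0% of the SOX2-low WT cells and 56.6% of the CF cells, and TFF1 in 14.2 and 23.1%. At day 5, TFF3 made up over 90% in 16 of 68 CF cells, which is 23.5% (14.1 to 35.4).

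Within the clusters rich in TFF1 and TFF2 the genes were also detected together. In WT cluster 17 at day 9 the odds ratios were 8.05 for TFF1 with TFF2, 6.76 for TFF1 with TFF3 and 5.69 for TFF2 with TFF3. In CF cluster 7 at day 9 they were 5.99, 4.62 and 11.65 in the same order, highest for TFF2 with TFF3. In CF cluster 7, TFF3 was found in 24.1% of the 133 cells with TFF2, whereas 78.1% of the 41 cells with TFF3 had TFF2. In CF cluster 19 these shares were 52.9 and 59.8%. Cluster 7 thus held many cells with TFF2 and no detected TFF3 at this depth. In the clusters with TFF3 and little of the others it was otherwise, and 1.22% of the 82 cells with TFF3 in WT cluster 18 and 3.05% of the 295 in WT cluster 3 had TFF1 or TFF2 at day 9.

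Over the 68 clusters of at least 50 cells, the genes most like each member were ranked by Pearson's r of log2(CPM + 1) among 11200 genes of at least 10 CPM in a cluster. Clusters share libraries and were built on the same genes, and r is a description. TFF1 and TFF2 were each other's nearest gene, with r = 0.96 over all clusters, 0.96 over the 39 WT clusters and 0.97 over the 29 CF clusters. TFF3 had r = 0.64 with TFF1 and 0.68 with TFF2 over all clusters, and 0.60 and 0.63 in WT beside 0.86 and 0.88 in CF. After TFF2, the genes most like TFF1 included LTF (0.88), LOC101673075 (0.82), SLC6A14 (0.81), BPIFB1 (0.81), the membrane mucin MUC17 (0.79) and the Wnt ligand WNT5A (0.78). Those of TFF2 included TFF1, LTF (0.88), SLC6A14 (0.83), BPIFB1 (0.83), LOC101673075 (0.82), PPP1R3B (0.78) and CORO2B (0.78).

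The genes most like TFF3 were others. They were the gel-forming mucin MUC5B (0.85), VPS50 of endosomal sorting (0.84), LOC101690256 (0.82), HEPACAM2 (0.80), VSIG2 (0.80), the receptor TNFRSF19 (0.80), MFSD6L (0.80) and the syntaxin STX19 (0.80). None of the 8 was among the nearest genes of TFF1 or TFF2. Of these 8, MUC5B, LOC101690256, VSIG2 and STX19 were higher in WT cluster 18 than in cluster 17, with LOC101690256 at 1596 and 105 CPM. VPS50, HEPACAM2, TNFRSF19 and MFSD6L were higher in cluster 17, with HEPACAM2 at 23.1 CPM there and 6.26 CPM in cluster 18. BPIFB1, near to TFF1 and TFF2, was at 358 CPM in cluster 17 and 1.01 CPM in cluster 18. In CF clusters 7, 18, 19 and 25 BPIFB1 was at most 16.9 CPM. Of the 8 nearest genes of TFF3, 2 were also among its 8 nearest over WT clusters alone and 0 over CF clusters alone, so this ranking rested on both genotypes together. For TFF2 it was 7 and 2, and for TFF1 5 and 3.

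**Figure D5:**
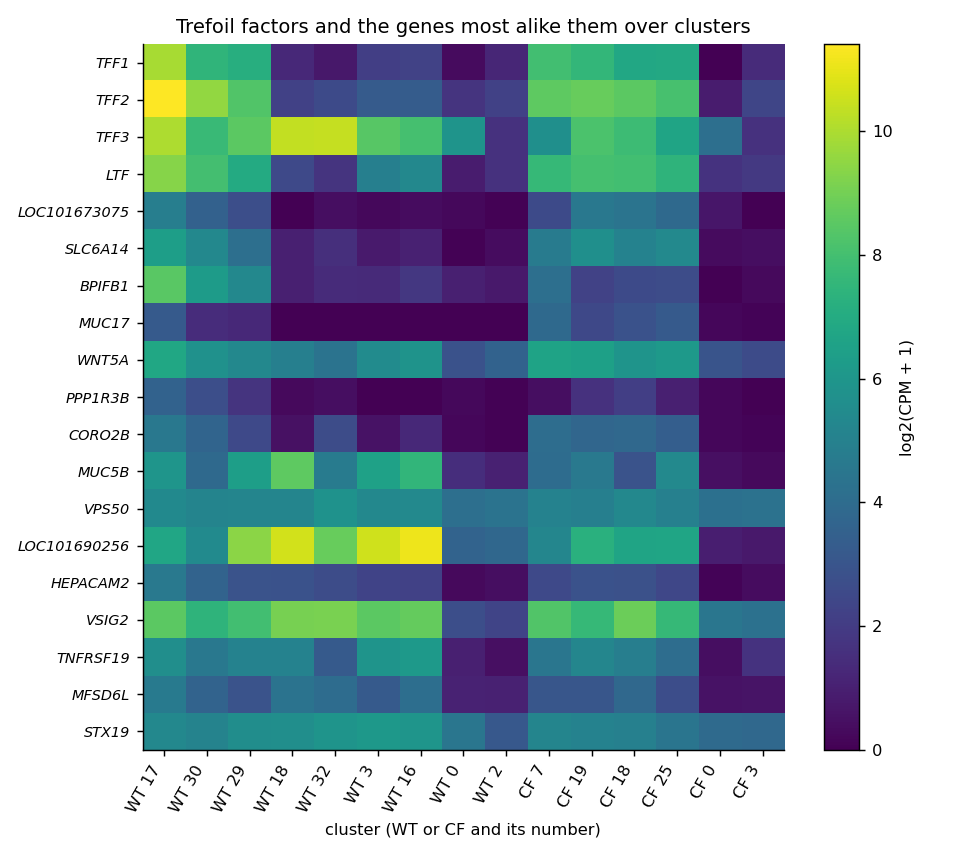
Level as log2(CPM + 1) by colour of the trefoil genes and the genes most like them (rows) in 15 clusters (columns, genotype and cluster number). LTF, SLC6A14 and BPIFB1 are high in WT cluster 17 and low in WT cluster 18, where MUC5B reaches 384 CPM and TFF3 1330 CPM.

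A list of 8 mucins and other secreted proteins linked to the trefoil factors, called partners here, was counted. Of these, 7 had a row in the matrices and 3 reached 10 CPM in a library. This list and those below were chosen with earlier results of these data known. MUC5AC, the surface mucin, stood at 0.262, 12.6, 22.7 and 126 CPM in WT and 31.4, 74.2, 47.0 and 45.9 CPM in CF at days 2, 5, 7 and 9. MUC5B stood at 0.166, 12.4, 35.3 and 56.4 CPM in WT and 0.928, 11.5, 8.18 and 7.399 CPM in CF. Both mucins were thus higher on each later day in WT, whereas in CF MUC5AC was present by day 2 and highest at day 5. GKN1, a stomach surface protein that is counted as a partner by this list only, stood at 15.7 to 28.9 CPM in WT and 41.5 to 88.7 CPM in CF. GKN2 stayed at 0.0436 CPM or less. The TFF2 partner MUC6 had no UMI in any library, MUC2 stayed at 4.48 CPM or less, and FCGBP had no row under that symbol. Between day 2 and day 9, 2 of 3 tested partners were at least 2-fold higher in WT and 0 of 2 in CF, beside 9.56% and 6.6% of all genes tested. 2 of 2 tested partners were above WT by 2-fold or more in CF day 2, 2 of 3 at day 5 and 1 of 3 at day 7, beside 4.33%, 2.25% and 4.93% of all genes. None was at least 2-fold lower at days 2 and 5 and 1 was at day 7, beside 4.06%, 4.08% and 2.83% of all genes. At day 9, 1 of 3 was at least 2-fold higher in CF (GKN1) and 2 were lower (MUC5AC and MUC5B), beside 3.56% and 3.78% of all genes.

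Of 6 candidate receptors, 3 reached 10 CPM. ACKR3, a scavenging chemokine receptor, stood at 1.74, 26.2, 25.3 and 16.4 CPM in WT and 1.40, 1.62, 6.97 and 13.6 CPM in CF. In WT cluster 17 it was at 0.504 CPM and in CF cluster 7 at 0.0676 CPM, both rich in TFF2. It was also low in WT clusters 18 and 32, which had little TFF2, at 0.671 and 0.973 CPM. In WT clusters 30 and 29 it was at 1.89 and 4.53 CPM. EGFR, the receptor of epidermal growth factor, was at 182 to 232 CPM in WT and 248 to 410 CPM in CF. F2RL1, a protease-activated receptor, was at 17.9 to 33.4 and 18.8 to 34.1 CPM. CXCR4 stayed at 1.70 CPM or less, and LINGO2 and LINGO3 had no UMI. From day 2 to day 9, 1 of the 3 (ACKR3) was at least 2-fold higher in each genotype, beside the same 9.56% and 6.6% of all genes. None of the tested receptors was above WT by 2-fold or more in CF up to day 7 and 1 was at day 9 (EGFR), where 4.33%, 2.25%, 4.93% and 3.56% of all genes were at days 2, 5, 7 and 9. ACKR3 was at least 2-fold lower in CF than in WT at days 5 and 7, and no receptor was at days 2 and 9, where 4.06%, 4.08%, 2.83% and 3.78% of all genes were at the 4 days in turn.

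Of 18 known regulators, 11 reached 10 CPM. From day 2 to day 9, 3 of 10 tested were at least 2-fold higher in WT and 0 of 9 in CF, beside 9.56% and 6.6% of all genes, with medians of 0.30 and 0.22 on the log2(CPM + 1) scale beside 0.10 and 0.15 over all genes. SPDEF, a goblet cell transcription factor, stood at 4.57, 10.3, 17.1 and 15.6 CPM in WT and 0.254, 4.002, 3.57 and 3.46 CPM in CF, and was below 10 CPM in all CF libraries. It was at 116 CPM in WT cluster 18, 48.2 CPM in cluster 17 and 6.84 CPM in CF cluster 19. FOXA3, another goblet cell factor, was at 19.2 CPM in WT cluster 17, 17.6 CPM in cluster 18 and without a UMI in CF cluster 7. It stayed at 2.60 CPM or less in the libraries. CREB3L1, a factor of the secretory pathway, was at 64.4 CPM in cluster 17, 11.7 CPM in cluster 18 and 28.3 CPM in CF cluster 7. By library it stood at 1.14, 1.62, 4.42 and 8.96 CPM in WT and 6.54, 8.51, 9.62 and 12.6 CPM in CF, higher in CF on each day. FOXA1 stood at 112 to 140 CPM in WT and 100 to 158 CPM in CF. FOXA2 stood at 8.61 to 12.1 CPM in WT and 13.45 to 26.1 CPM in CF, and ELF3 at 244 to 508 and 310 to 411 CPM. 1 of 8 regulators was above WT by 2-fold or more in CF day 2 and 0 of 9 at days 5 and 7, beside 4.33%, 2.25% and 4.93% of all genes. Lower by as much were 1, 2 and 2, beside 4.06%, 4.08% and 2.83%. At day 9, 0 of 11 regulators were at least 2-fold higher in CF and 3 were lower (SPDEF, KLF4 and SOX2), beside 3.56% and 3.78% of all genes. SOX2 was among the lower regulators on each day. It had been used above to part the WT clusters and was close to absent in CF, so its place in these counts was known beforehand. PDX1, a transcription factor of pancreas and duodenum, stayed under the filter of 10 CPM and was not among the 11, with 222 UMIs (4.44 CPM) in CF day 9 and none in WT day 9.

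Of 13 genes of the secretory pathway and secreted products, 12 had a row and 10 reached 10 CPM. From day 2 to day 9, 7 of 9 tested were at least 2-fold higher in WT and 5 of 7 in CF, beside 9.56% and 6.6% of all genes. Their medians were 4.18 and 1.83 on the log2(CPM + 1) scale, beside 0.10 and 0.15 over all genes. LTF, BPIFB1, WFDC2 and SPINK1 of this list are among the 10 leading genes of trefoil-rich clusters. The list was chosen with earlier results of these data known, so its counts and medians are descriptions and show no enrichment. LTF stood at 0.0175, 4.54, 11.5 and 116 CPM in WT and 2.65, 61.8, 122 and 112 CPM in CF, so like TFF1 it was higher in CF than in WT until day 7. WFDC2, a secreted protease inhibitor, stood at 11820 CPM in WT day 9 and 271 CPM in CF day 9. SPINK1, the trypsin inhibitor of the pancreas, was the reverse, with 2.75 and 261 CPM. AGR2, which helps mucins to fold, was at 138 and 157 CPM. 1 of 5 was above WT by 2-fold or more in CF day 2, 2 of 7 at day 5 and 2 of 10 at day 7, beside 4.33%, 2.25% and 4.93% of all genes. Lower by as much were 1, 1 and 4, beside 4.06%, 4.08% and 2.83%. At day 9, 1 of 10 was at least 2-fold higher in CF and 4 were lower, beside 3.56% and 3.78% of all genes, and the median was -0.29 beside 0.09.

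Of 12 genes of the gastric surface and glands, 6 reached 10 CPM, MUC5AC and GKN1 among them. PSCA, a surface antigen of mucous cells, stood at 27.8 to 143 CPM in WT and 173 to 409 CPM in CF. The stomach claudin CLDN18 was at 5.17 to 17.5 CPM in WT and 2.49 to 9.398 CPM in CF. The pepsinogen gene PGC had no UMI in any library. From day 2 to day 9, 3 of 6 tested were at least 2-fold higher in WT, beside 9.56% of all genes. In CF 0 of 4 were higher, beside 6.6%, and 1 (PSCA) was lower, beside 2.95% of all genes. 3 of 4 were above WT by 2-fold or more in CF day 2, 3 of 5 at day 5 and 2 of 5 at day 7, beside 4.33%, 2.25% and 4.93% of all genes, and 0, 1 and 0 were lower, beside 4.06%, 4.08% and 2.83%. At day 9, 1 of 6 was at least 2-fold higher in CF and 2 were lower, beside 3.56% and 3.78%. The median difference (CF minus WT, log2(CPM + 1)) was 2.86, 1.58, 0.90 and -0.31 at days 2, 5, 7 and 9.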

How the data were processed

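The deposited matrices held whole counts of UMIs per gene and barcode. Per the study's methods and the submitters' processing notes, the authors had used Cell Ranger 5.0.1 on ferret assembly ASM1176430v1.1 with an improved annotation, and R 4.1.2 with Seurat. They had applied a minimum of 200 genes and a maximum of 20% mitochondrial UMIs per cell, removed doublets with DoubletFinder, merged the libraries without batch correction and clustered WT and CF cells separately. The deposited cell table gave each cell's UMI count, its percent of mitochondrial UMIs, and other columns for library, cluster and class. The deposited normalized values and lineage scores were not used.

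UMIs of retained cells were summed and scaled to CPM. Differences are on the log2(CPM + 1) scale, and at least 2-fold means at least 1 on it, among genes of at least 10 CPM in a library compared. Shares used cells thinned to 3000 UMIs. With 1 library per genotype and day no test was run. Intervals are 95% exact Poisson, Clopper-Pearson or conditional binomial intervals for counting error only. Clusters of at least 50 cells were ranked for the genes most like each member, and 8 were taken per member, of which 1 gene is not reported here, with all list genes counted and the 3 nearest neighbours on each side of the locus. Members and gene lists were chosen with earlier results of these data known. A cluster failed the naming check where markers of a different class, TFF3 left out, outnumbered its own among its 10 leading genes, or where its cells had few UMIs and no own marker led. Computation used Python 3.11.15, numpy 2.4.6, scipy 1.17.1, and edgeR 4.0.16 and DESeq2 1.42.0 for scaling factors only. Scripts were tested on simulated data. Sequences of the genes were not used here.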

Additional observations from a re-analysis of the deposited data

Results flagged for a closer look

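The CF minus WT difference changed sign between neighbouring days for each trefoil gene, and these changes of direction were not tested, since each genotype and day had 1 library. TFF1 differed by 2.50 on the log2(CPM + 1) scale at day 7 and by -0.31 at day 9. TFF2 differed by 0.79 at day 7 and by -0.67 at day 9. TFF3 differed by 0.92 at day 2 and by -0.65 at day 5.

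The barcodes that the authors had not retained, 11298 over the 8 libraries, also held trefoil transcripts. The limit that a count of 0 allows is 0.0298 CPM. It is far below the levels in retained cells from day 5 on, so passing it says little. Summed over these barcodes, TFF1 stood at 30.5 CPM (29.4 to 31.6), TFF2 at 104 CPM (102 to 106) and TFF3 at 90.2 CPM (88.4 to 92.1). In the WT day 5 library the barcodes not retained had 21.1 CPM of TFF1 and 110 CPM of TFF2, beside 1.33 and 16.4 CPM in the retained cells.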

How the results depend on the processing

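Over 7 alternatives the direction of each gene's CF minus WT difference was kept in 78 of 84 values. Over 5 alternatives that of day 9 minus day 2 was kept in 30 of 30. A pseudocount of 5 in place of 1 CPM cannot change a direction. The day 9 minus day 2 differences were also far larger than the scaling shifts, so these counts say little. In size, 46 of the 84 moved by more than counting error, 1 reversed from at least 2-fold and 37 stayed within it. Each change of sign came with SOX2-low WT clusters alone or with equal weight per class. With SOX2-low WT clusters alone, TFF2 at day 2 went from 1.13 to -0.07, at day 5 from 0.73 to -0.30 and at day 7 from 0.79 to -0.62, TFF3 at day 7 went from -0.88 to 0.40, and 3 genes in place of 1 were at least 2-fold lower in CF at day 9. With equal weight per class, TFF1 and TFF2 changed sign at day 9 and at day 7 the genes at least 2-fold above WT were 2 in place of 1. With TMM scaling, median-of-ratios scaling or all barcodes, 1 gene (TFF3) in place of 0 was at least 2-fold lower in CF at day 7. The scalings moved the median of all genes by -0.14 and -0.15 there, by -0.11 and -0.15 for day 9 against day 2 in WT, and by -0.21 in CF. With no filter on low counts, 6.16% in place of 9.56% of genes were at least 2-fold higher at day 9 in WT.

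The share of cells with all 3 genes followed depth. Without thinning it was 0.282, 1.06 and 6.33% in WT and 0.909, 4.17 and 8.92% in CF at days 5, 7 and 9. Thinned to 1000 UMIs it was 0.0188, 0.151 and 1.70% in WT and 0, 0.358 and 0.829% in CF. With at least 3 UMIs of each gene it was 0, 0.0877 and 1.46% in WT and 0, 0.334 and 0.706% in CF.

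No paired analysis was run. Libraries were not replicated within a genotype and day, each held cells pooled from several animals, and the labels give no replicate number that pairs libraries. A fit with the 4 days as pairs of the genotypes was not run. The TFF1 level at day 2 rests on 2 and 17 UMIs. A level of 3 UMIs was 0.0262 to 0.0362 CPM in the WT libraries and 0.0293 to 0.0864 CPM in the CF libraries, highest in CF day 7.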
